A study of Mus musculus with 4 samples.

Results

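Genes used as markers of the thalamus were followed in whole transcriptome libraries of mouse cortex. The set holds 10 genes (Tcf7l2, Prkcd, Slc17a6, Lef1, Plekhg1, Ntng1, Calb2, Zic1, Rgs16 and Synpo2) of the 18386 genes and other features that had counts. Its members were chosen by gene name, with earlier results of these data known. The libraries came from the cortex of 2 APPswe/PS1ΔE9 mice, called APP-3 and APP-4, and of 2 wild-type mice, called WT-1 and WT-2. All 4 mice were male, 12 months old and of the C57BL/6 background. The APP mice carry transgenes for APP with the Swedish mutations and for presenilin 1 lacking an exon, in this line driven by the prion protein promoter, and they deposit amyloid in cortex, while the WT mice carry neither. Each library is 1 mouse, and the comparison is between the genotypes.

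The thalamus is the relay of the forebrain: its excitatory neurons receive sensory and subcortical input and send axons into the cortex. Their identity depends on the Wnt-responsive transcription factor Tcf7l2, and they load glutamate into vesicles mainly with Slc17a6, where cortical neurons use Slc17a7. The RNA of a thalamic neuron lies mostly in its cell body, outside the cortex. No member is made in the thalamus alone. Calb2 marks a class of cortical interneurons, Tcf7l2 is also made in the oligodendrocyte lineage, Slc17a6 in the hypothalamus and brainstem, Lef1 in brain endothelium, Synpo2 in smooth muscle, and Zic1 in the septum and the meninges.

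Libraries held between 28525117 and 43881196 counts, the WT libraries more than the APP libraries. A member had between 44 counts (Lef1 in APP-4) and 1411 counts (Slc17a6 in WT-1) in a library, so none was near the limit of detection. Markers gave a partial view of the cortical label: 14 of 15 listed genes of cortical excitatory neurons were counted. Their summed level was 921 and 884 CPM (read counts scaled to library size) in APP-3 and APP-4, and 1013 and 1024 CPM in WT-1 and WT-2. Of the 14, 0 were called between the genotypes (6 at an unadjusted p under 0.05), and their median log2 fold change was -0.16. In 7 both APP libraries lay below both WT libraries and in 0 above, against 21.4% and 21.3% of all features. The presence of these genes does not show where the tissue was cut. Slc17a7, the cortical vesicular glutamate transporter, was at between 313 and 392 CPM in each library. The 10 thalamic markers summed to 127 and 119 CPM in the APP libraries and to 96.4 and 95.2 CPM in the WT libraries. These are bulk tissue libraries, in which fewer cells of a type and less RNA per cell cannot be told apart. In the WT mice the members were thus present in cortex at low to middling levels.

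Sequences of 2 members are shown first, because the counts of these members lie on transcripts that can be told apart by sequence. Bases are from GENCODE M21 transcripts on GRCm38 and read 5′ to 3′ in the direction of the gene. Tcf7l2 (chr19:55741820-55933654, + strand) had counts on 2 coding transcripts, and in 1 of them a coding stretch of 51 bases, at chr19:55924530-55924580, is present (capitals) that the other lacks, with 20 bases on either side for comparison.
Tcf7l2-202: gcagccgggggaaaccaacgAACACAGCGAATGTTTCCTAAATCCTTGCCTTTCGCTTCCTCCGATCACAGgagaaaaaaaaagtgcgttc
Tcf7l2-201: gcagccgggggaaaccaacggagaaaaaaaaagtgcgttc
Synpo2 (chr3:123076519-123236149, - strand) had counts on 2 coding transcripts that share 2293 bases and then part, with capitals from the first base after the shared stretch, at chr3:123112405-123112430 in Synpo2-201 and chr3:123080218-123080257 in Synpo2-202.
Synpo2-201: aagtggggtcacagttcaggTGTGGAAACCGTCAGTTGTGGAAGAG
Synpo2-202: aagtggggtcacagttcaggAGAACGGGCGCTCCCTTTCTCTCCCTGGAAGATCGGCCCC

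Of the 10 thalamic markers, 1 changed between the genotypes: Calb2 was higher in APP. A gene was called where the Benjamini-Hochberg adjusted p of edgeR's quasi-likelihood test, taken over all features, was under 0.05 and the fold was 1.5 or more. Of all features, 0.881% were called, 0.843% higher and 0.0381% lower in APP, and of the 8586 features within the range of mean CPM of the members, 1.36%. At an unadjusted p under 0.05 there were 7 members, all higher in APP, against 12.1% of all features, 7.36% being higher in APP. The log2 fold change was above 0 in 8 members and in 49.7% of all features. In 8 of the 10 members both APP libraries lay above both WT libraries, in 0 both lay below, and in Lef1 and Rgs16 the groups overlapped. Over all features, 21.3% had APP above WT in this way and 21.4% had APP below. Among features of like mean CPM, 24.1% had APP above. The median log2 fold change of the members was 0.38, against -0.0011 over all features and 0.013 over those of like level. Because the members were chosen with earlier results of these data known, these shares and medians describe the set and do not test it. Permuting 2 mice against 2 has a smallest two-sided exact p of 0.333, and each adjusted p here therefore draws on a dispersion fitted across features.

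**Figure D1:**
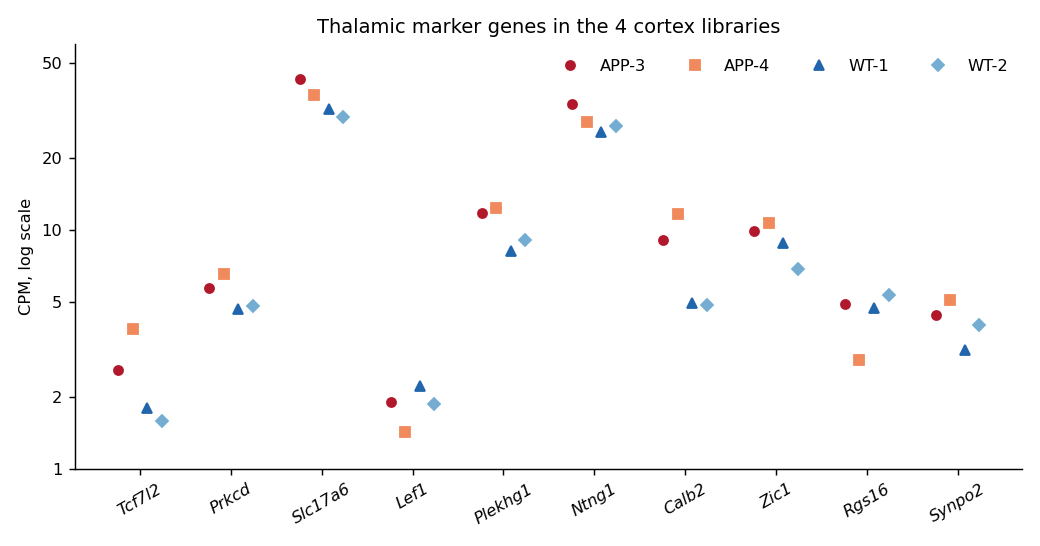
CPM of each thalamic marker (log axis) in the libraries APP-3, APP-4, WT-1 and WT-2, 1 symbol a library. Both APP symbols lie above both WT symbols for 8 genes, with the widest gap for Calb2, and the symbols of Lef1 and Rgs16 overlap.

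Calb2 (chr8:110137502-110168210, - strand) encodes calretinin, a cytosolic calcium buffer of midline thalamic neurons and of cortical interneurons. It was at 9.03 and 11.6 CPM in APP-3 and APP-4 and at 4.96 and 4.85 CPM in WT-1 and WT-2. The WT libraries were nearly level and both APP libraries were well above them. Calb2 rose 2.10-fold, a log2 fold change of 1.07 ± 0.16 (SE, 95% interval 0.71 to 1.43, edgeR's quasi-likelihood test, adjusted p = 0.0176). Without any 1 of the libraries its log2 fold change lay between 0.88 and 1.24. Its relatives in other interneurons did not pass. Pvalb, parvalbumin, had a log2 fold change of -0.54 ± 0.11 (SE, edgeR's quasi-likelihood test, adjusted p = 0.0615) and Calb1, calbindin, one of -0.10 ± 0.063 (edgeR's quasi-likelihood test, adjusted p = 0.581). Calb2 made up 6.00% and 7.55% of the counts of these 3 genes in the APP libraries, and 3.01% and 2.95% in the WT libraries. Of the 13 listed markers of cortical interneurons, 0 were called (4 at an unadjusted p under 0.05). In 6 of them both APP libraries lay below both WT libraries and in 0 above, against 21.4% and 21.3% of all features. The median log2 fold change of the 13 was -0.12, which turned to 0.042 without APP-3.

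Tcf7l2 is the transcription factor that carries Wnt signals to DNA and sets the identity of thalamic excitatory neurons. It was at 2.59 and 3.84 CPM in APP-3 and APP-4, and at 1.798 and 1.58 CPM in WT-1 and WT-2. Both APP libraries were above both WT libraries, but they differed from each other by more than the counting error allows, with APP-4 over APP-3 at a log2 ratio of 0.57 (95% counting interval 0.14 to 1.01). The log2 fold change was 0.93 ± 0.25 (SE, 95% interval 0.37 to 1.49), a fold of 1.90, and did not pass (edgeR's quasi-likelihood test, adjusted p = 0.155). The call turned on the test and on 1 library: Tcf7l2 was called by the exact test of edgeR (adjusted p = 0.0423), by its likelihood ratio test (adjusted p = 0.0370), and without APP-3 (log2 fold change 1.18, adjusted p = 0.00180). Without APP-4 the log2 fold change was 0.61.

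Both transcripts of Tcf7l2 shown above contributed. The form without the 51 bases was at 2.03 and 2.91 CPM in the APP libraries and at 1.48 and 1.27 CPM in the WT libraries. The form with them was at 0.551 and 0.936 CPM in the APP libraries and at 0.319 and 0.310 CPM in the WT libraries, and rested on at most 29 counts a library. In each form APP lay above WT. The form with the stretch took 21.3% and 24.4% of the gene's counts in APP-3 and APP-4, against 17.7% and 19.6% in WT-1 and WT-2. The form without the stretch is 3590 bases long and the form with it 3193, so the forms differ elsewhere too. Reads over parts common to both could fall on either form, and how the authors shared them out is not given in the sources used here.

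Lef1 (chr3:131110471-131224356, + strand) is a factor of the same family, and the groups overlapped. It was at 1.90 and 1.42 CPM in the APP libraries and at 2.23 and 1.86 CPM in the WT libraries, a log2 fold change of -0.31 ± 0.25 (SE, 95% interval -0.88 to 0.26, edgeR's quasi-likelihood test, adjusted p = 0.698). This interval holds changes past a fold of 1.5 downward, so a fall of that size could not be detected or set aside at this depth. It was -0.53 without APP-3, -0.11 without APP-4 and -0.17 without WT-1, and -0.081 over the coding transcript alone. Of the counts of Lef1, 68.4% lay on 2 transcripts with a retained intron and 31.6% on its coding transcript. Within the TCF/LEF family (Tcf7l2, Lef1, Tcf7 and Tcf7l1), Tcf7l2 took 49.3% and 56.4% of the counts in the APP libraries and 33.6% and 35.7% in the WT libraries. The share of Lef1 was 36.2% and 20.9% in the APP libraries and 41.7% and 42.0% in the WT libraries. In the family, Tcf7l2 thus had the higher share in APP and Lef1 the lower. The family had only 152 to 235 counts in a library.

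Of the 25 listed partners and targets of Wnt signalling, 24 were counted and 0 were called (3 at an unadjusted p under 0.05), with a median log2 fold change of 0.050. Ctnnb1, β-catenin, the coactivator that Tcf7l2 and Lef1 bind, had a log2 fold change of 0.072 ± 0.062 (SE, 95% interval -0.069 to 0.21, edgeR's quasi-likelihood test, adjusted p = 0.719). The target Ccnd1, cyclin D1, was at 30.4 and 25.6 CPM in the APP libraries and at 15.8 and 22.0 CPM in the WT libraries, and did not pass (edgeR's quasi-likelihood test, log2 fold change 0.57, adjusted p = 0.156). The list lay in both directions. In 5 of its genes, Ccnd1 among them, both APP libraries lay above both WT libraries. In 4, with Axin2 (log2 fold change -0.17) and Nkd1 (-0.29) among them, both lay below. The sequences CTTTGAA and CTTTGAT, forms of the core motif of TCF/LEF factors, were searched on both strands of promoter windows. Windows (RefSeq, GRCm38.p6) ran from 250 bases before to 50 after a gene start. These sequences were in 0 of 15 windows of the 9 members that had one, and in 8.65% of all 32851 windows. Other forms of the motif were not searched, and 15 windows are few at that share.

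Slc17a6 (chr7:51622006-51671119, + strand), the vesicular glutamate transporter of thalamic neurons, was the member with the most counts. It was at 42.9 and 36.6 CPM in APP-3 and APP-4 and at 32.1 and 29.6 CPM in WT-1 and WT-2, so the groups were apart. The log2 fold change was 0.36 ± 0.093 (SE, 95% interval 0.15 to 0.58, edgeR's quasi-likelihood test, adjusted p = 0.142), with an upper bound just under a fold of 1.5. By edgeR's exact test the adjusted p was 0.0351 and by its likelihood ratio test 0.0338, with the fold under 1.5 in both. Slc17a7 lay the other way, with both APP libraries below both WT libraries and a log2 fold change of -0.29 ± 0.062 (SE, edgeR's quasi-likelihood test, adjusted p = 0.0818). Slc17a6 made up 11.7% and 10.3% of the counts of the 3 vesicular glutamate transporters in the APP libraries, against 7.66% and 6.97% in the WT libraries. None of these transporters passed.

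Ntng1 (chr3:109780040-110144011, - strand) encodes netrin-G1, a lipid-anchored adhesion protein of thalamocortical axons. It was at 33.7 and 28.3 CPM in the APP libraries and at 25.8 and 27.2 CPM in the WT libraries. The groups did not overlap, but APP-4 lay close to WT-2. The log2 fold change was 0.23 ± 0.097 (SE, 95% interval 0.01 to 0.45, edgeR's quasi-likelihood test, adjusted p = 0.391), which does not reach a fold of 1.5 at either bound. Leaving out APP-3 gave 0.099, and leaving out APP-4 gave 0.35, under a fold of 1.5. Counts lay on 7 transcripts, and 49.97% of them on 1 that the deposited file types as subject to nonsense-mediated decay. That transcript was at 17.5 and 13.9 CPM in the APP libraries and at 13.1 CPM in both WT libraries. Against its relative Ntng2 the share of Ntng1 overlapped between the groups, at 80.9% and 77.8% in APP and 75.3% and 77.8% in WT.

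Prkcd (chr14:30595354-30626210, - strand), protein kinase C delta, is a signalling kinase made in thalamic relay neurons and in the central amygdala. It was at 5.69 and 6.52 CPM in APP-3 and APP-4 and at 4.67 and 4.796 CPM in WT-1 and WT-2. The groups were apart, with a log2 fold change of 0.37 ± 0.15 (SE, 95% interval 0.02 to 0.71, edgeR's quasi-likelihood test, adjusted p = 0.369). It took 0.432% and 0.511% of the counts of 9 protein kinase C genes in APP and 0.338% and 0.347% in WT, so it was a minor isozyme in each library.

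Rgs16 (chr1:153740349-153745468, + strand) shortens signalling by G proteins, and its groups overlapped. It was at 4.89 and 2.84 CPM in APP-3 and APP-4 and at 4.71 and 5.36 CPM in WT-1 and WT-2. APP-3 lay among the WT libraries and APP-4 below them, at a log2 ratio to APP-3 of -0.78 (95% counting interval -1.19 to -0.39), the widest gap between replicates of any member. The log2 fold change was -0.38 ± 0.24 (SE, 95% interval -0.93 to 0.17, edgeR's quasi-likelihood test, adjusted p = 0.591), and the direction rested on APP-4. It was -0.82 without APP-3 (adjusted p = 0.0118, past both cut-offs) and -0.035 without APP-4 (adjusted p = 0.958), in fits that take the lone APP library to vary like the WT libraries.

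Plekhg1 (chr10:3740364-3967303, + strand) encodes a guanine nucleotide exchange factor with a pleckstrin homology domain. It was at 11.8 and 12.3 CPM in the APP libraries and at 8.15 and 9.11 CPM in the WT libraries, with little spread within either group. Its log2 fold change of 0.48 ± 0.12 (SE, 95% interval 0.21 to 0.76) had the lowest adjusted p among the members that were not called (edgeR's quasi-likelihood test, adjusted p = 0.131). Its relative Plekhg3 had a log2 fold change of 0.47 ± 0.15 (SE, edgeR's quasi-likelihood test, adjusted p = 0.246).

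Zic1 (chr9:91358058-91365810, - strand) is a zinc finger transcription factor of medial thalamus, septum and meninges. It was at 9.86 and 10.7 CPM in APP-3 and APP-4 and at 8.83 and 6.83 CPM in WT-1 and WT-2. The WT libraries differed from each other by nearly as much as the groups did, with WT-2 over WT-1 at a log2 ratio of -0.37 (95% counting interval -0.61 to -0.14). The log2 fold change was 0.39 ± 0.15 (SE, 95% interval 0.04 to 0.74, edgeR's quasi-likelihood test, adjusted p = 0.343). It was 0.59 without WT-1 and 0.22 without WT-2, and was not called in either case. Zic1 shares 60 exon bases with Zic4 on the opposite strand, and whether the counting used strand is not stated. Zic4 had 35 to 88 counts in a library. The summed level of the 8 listed meningeal markers was 49.2 and 41.2 CPM in APP and 53.1 and 43.1 CPM in WT, with 0 called (1 at an unadjusted p under 0.05).

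Synpo2 encodes an actin-binding protein of smooth and striated muscle. It was at 4.41 and 5.07 CPM in APP-3 and APP-4 and at 3.14 and 4.01 CPM in WT-1 and WT-2, and its log2 fold change was 0.41 ± 0.18 (SE, 95% interval -0.01 to 0.83, edgeR's quasi-likelihood test, adjusted p = 0.421). Without WT-1 it was 0.24. The transcripts that part after the shared stretch shown above gave different values. Synpo2-202 was at 1.83 and 1.84 CPM in the APP libraries and at 0.979 and 0.987 CPM in the WT libraries, a log2 fold change of 0.90 ± 0.26 (SE, edgeR's quasi-likelihood test over transcripts, adjusted p = 0.153). Synpo2-201 overlapped between the groups, at 2.41 and 2.91 CPM in APP and 1.93 and 2.93 CPM in WT, with a log2 fold change of 0.14 ± 0.23 (SE, edgeR's quasi-likelihood test over transcripts, adjusted p = 0.926). The difference between the transcripts was not tested, and neither passed. Among 8 counted markers of smooth muscle and pericytes 0 were called (0 at an unadjusted p under 0.05), and their summed level was 86.2 and 90.5 CPM in APP and 87.1 and 83.3 CPM in WT.

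**Figure D2:**
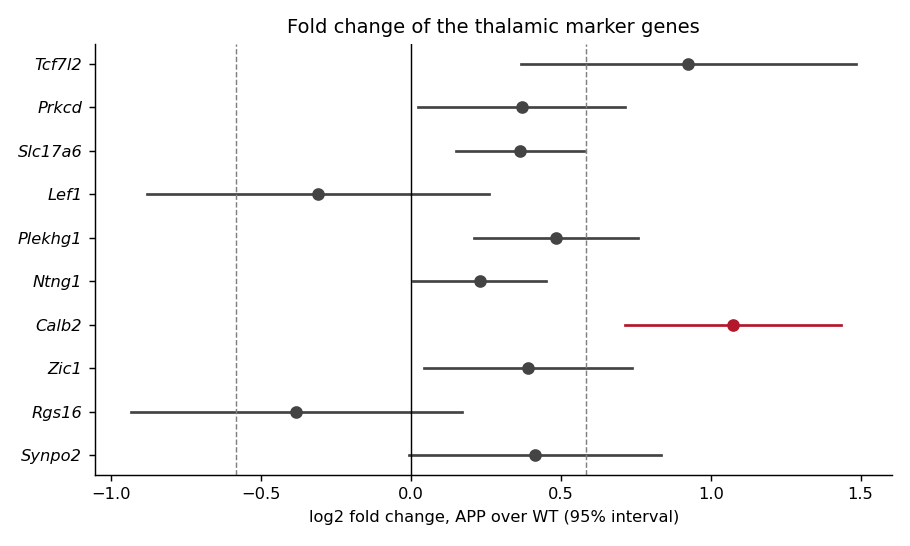
Log2 fold change of each thalamic marker, APP over WT, with its 95% interval from edgeR's quasi-likelihood fit, and dashed lines at a fold change of 1.5 in either direction. Calb2, in red, is the only gene past both cut-offs. For 7 genes the interval lies above 0.

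Taken by transcript, the members had counts on 24 transcripts, 7 of them not protein coding, with 4 genes on 1 transcript each. By edgeR's quasi-likelihood test over 37539 transcripts, 0.807% were called, and of the members only Calb2-201 (adjusted p = 0.00159). An unadjusted p under 0.05 was seen in 8, and in 9.18% of all transcripts. In 14 transcripts both APP libraries lay above both WT libraries, against 19.6% of all transcripts. In 2 they lay below, against 19.1% of all transcripts, and these were the retained-intron transcripts of Lef1, with 5 to 50 counts in a library.

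**Figure D3:**
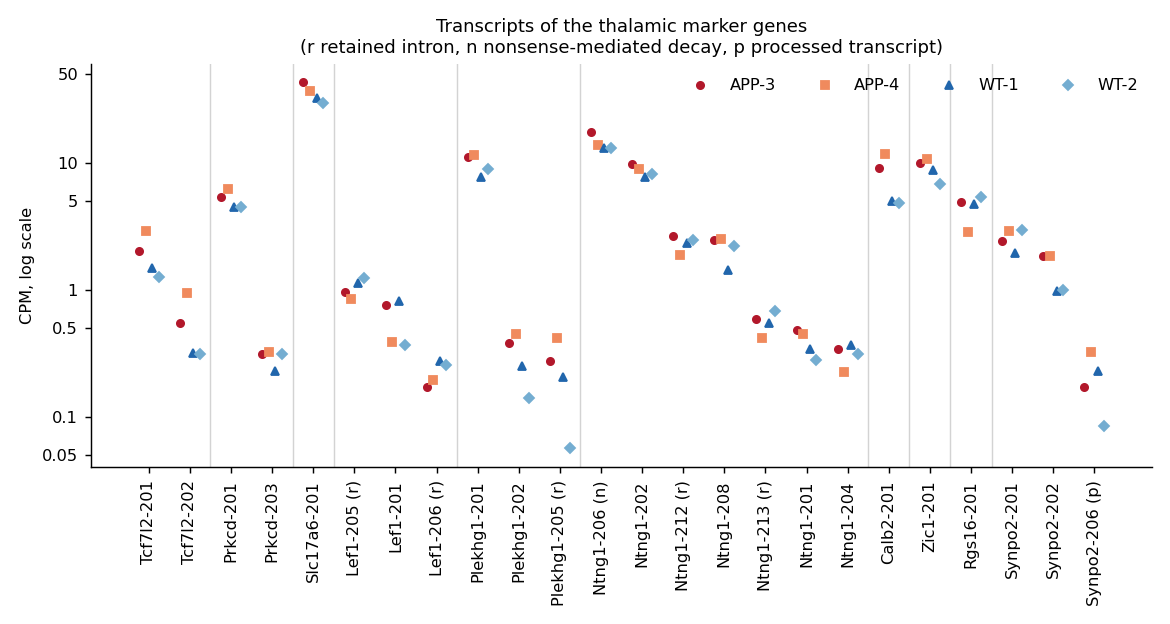
CPM (log axis) of the 24 transcripts of the thalamic markers in each library, grouped by gene, with transcripts that are not protein coding marked by a letter. Calb2-201 has the clearest gap between the genotypes, Synpo2-202 is nearly level within each genotype, and most transcripts under 0.5 CPM are scattered.

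Levels of different members were compared per kilobase of transcript, as CPM per kilobase averaged over the 4 libraries of both genotypes. Ntng1 was at 11.8, Slc17a6 at 8.54, Calb2 at 5.32, Prkcd at 2.11 and Rgs16 at 1.90. Zic1 was at 1.62, Plekhg1 at 1.52, Tcf7l2 at 0.701, Synpo2 at 0.669 and Lef1 at 0.562. In this order, neighbours whose libraries did not overlap were Ntng1 and Slc17a6, Calb2 and Prkcd, and Plekhg1 and Tcf7l2. All other neighbours overlapped over the 4 libraries, though within each library Slc17a6 was above Calb2. Some neighbours changed places in WT alone. There Rgs16 (2.15) was above Prkcd (1.85), and Lef1 (0.623) and Synpo2 (0.559) were above Tcf7l2 (0.481). Replicates of the members were farther apart than those of other features: the median absolute log2 ratio between replicates was 0.239 for the members in APP and 0.174 in WT, against 0.149 and 0.111 for features of like level.

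Other genes known from the thalamus lay in both directions. Of 15 listed, 13 were counted and 0 were called (4 at an unadjusted p under 0.05), and their median log2 fold change was -0.050. Their summed level was 622 and 585 CPM in APP-3 and APP-4 and 624 and 617 CPM in WT-1 and WT-2. In 3 genes APP lay above WT. Amotl1, which binds at cell junctions, was at 54.6 and 33.5 CPM in APP and 25.7 and 24.9 CPM in WT (log2 fold change 0.80 ± 0.19, SE, edgeR's quasi-likelihood test, adjusted p = 0.105). Vipr2, a receptor for vasoactive intestinal peptide, was at 0.827 and 1.49 CPM in APP and 0.387 and 0.423 CPM in WT (log2 fold change 1.51 ± 0.42, SE, adjusted p = 0.176). Lhx9, a homeodomain factor, had a log2 fold change of 1.28 ± 0.43 (SE, adjusted p = 0.257). None of these 3 passed. In 5 genes APP lay below WT, among them Plcb4, a phospholipase C, with a log2 fold change of -0.25 ± 0.077 (SE, edgeR's quasi-likelihood test, adjusted p = 0.216). Rora, the most abundant of the list and also a gene of cortical layer neurons, overlapped between the groups. The median of this list was 0.25 without APP-3, so its sign depended on that library. Of 7 habenular markers, from the neighbour of the thalamus, 5 were counted and 0 called (0 at an unadjusted p under 0.05). They summed to 64.1 and 57.4 CPM in APP and to 66.7 and 66.5 CPM in WT. Most of this sum was Nwd2, at 61.3 and 54.2 CPM in APP and 63.6 and 63.2 CPM in WT, so it says little of the others. By gene, APP lay above WT in 1 of the 5 and below WT in 2.

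Markers of other regions and cell types differed with the genotype or with single libraries, and their part in the values of the thalamic markers was not tested. Hypothalamic markers, from a region that also makes Slc17a6, summed to 10.7 and 13.9 CPM in APP and to 5.28 and 4.94 CPM in WT. Of 13 listed, 7 were counted, each with APP above WT. Of these, Sim1 and Avp were called (named after their values were seen, each with 2 and 0 counts in WT-1 and WT-2), and 3 of the 7 had at most 3 counts in each WT library. These 3, with Sim1 and Avp among them, reached the 10 counts needed to be kept only through the APP libraries. Their direction was therefore set by that filter. Trh, thyrotropin-releasing hormone, was at 2.10 and 3.33 CPM in APP and at 0.979 and 0.621 CPM in WT (edgeR's quasi-likelihood test, adjusted p = 0.0515). Oligodendrocyte markers, of a lineage that makes Tcf7l2, summed to 1982 and 1752 CPM in APP and 1297 and 1434 CPM in WT, with 1 of 13 called (Mag) and APP above WT in 11. Endothelial markers, of cells that make Lef1, summed to 100.1 and 94.95 CPM in APP and to 110.0 and 104.8 CPM in WT, with 0 of 10 called (3 at an unadjusted p under 0.05).

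The APP libraries also differed from each other in markers of the ventral forebrain. Striatal markers summed to 333 CPM in APP-3 and 689 CPM in APP-4, with 459 and 514 CPM in WT-1 and WT-2 between them, and 0 of 12 were called (0 at an unadjusted p under 0.05). Septal and cholinergic markers summed to 6.79 CPM in APP-3 and 22.1 CPM in APP-4, with 9.01 and 7.39 CPM in the WT libraries. Olfactory bulb markers summed to 8.58 and 15.1 CPM in APP and 8.24 and 6.83 CPM in WT. None of the 5 septal and 6 olfactory bulb markers counted was called by edgeR's quasi-likelihood test (2 and 3 at an unadjusted p under 0.05). Among those at that p, Slc18a3 (6 and 3 counts in WT-1 and WT-2) and Eomes (2 and 0) were kept only through the APP libraries. Their direction was therefore not independent of the filter of 10 counts. APP-4 was the highest library for all 3 of these lists. Of the 10 thalamic markers, 6 (Calb2, Tcf7l2, Zic1, Prkcd, Plekhg1 and Synpo2) were higher in APP-4 than in APP-3, and 5 were higher in WT-2 than in WT-1. Slc17a6, Ntng1, Rgs16 and Lef1 were higher in APP-3. Any link between these lists and the values of the members was not tested.

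Some glial markers rose in APP. Of 15 microglial markers 10 were called, all higher in APP, with a median log2 fold change of 0.96. Among the called, Cst7 (2 and 0 counts in WT-1 and WT-2) and Clec7a (5 and 4) were kept only through the APP libraries. Among 8 astrocyte markers Gfap and Aqp4 were called, with a log2 fold change of 2.82 ± 0.091 for Gfap (SE, edgeR's quasi-likelihood test, adjusted p = 8.08e-06). Markers of hippocampus, with 5 of 7 counted, and of choroid plexus, with 4 of 7 counted, had 0 called (0 at an unadjusted p under 0.05 in either list).

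**Figure D4:**
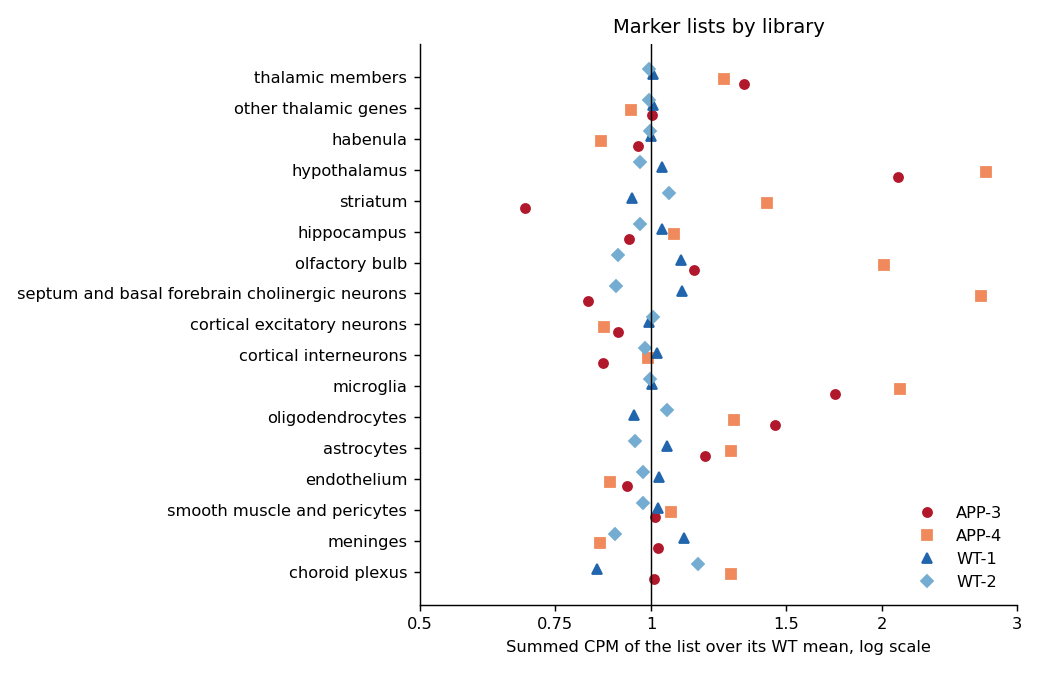
Summed CPM of each marker list in each library, divided by the mean of the WT libraries (log axis, vertical line at 1). Both APP symbols lie right of both WT symbols for the thalamic members, hypothalamus, microglia, oligodendrocytes, astrocytes and olfactory bulb, and the other thalamic genes lie near 1 in all libraries.

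Paralogs of the members gave a further comparison. Of 33 listed, 30 were counted and 0 were called (6 at an unadjusted p under 0.05), with a median log2 fold change of -0.026, with APP above WT in 5 and below WT in 10. Zic2 had a log2 fold change of 0.39 ± 0.20 (SE, edgeR's quasi-likelihood test, adjusted p = 0.497) and Prkcb, a kinase of cortical neurons, one of -0.14 ± 0.074 (SE, edgeR's quasi-likelihood test, adjusted p = 0.502).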

How the data were processed

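Cortex RNA of 2 APP and 2 WT mice was analysed from 1 deposited table. According to their methods, the authors depleted ribosomal RNA, prepared strand-specific libraries, removed read pairs matching ribosomal RNA, mapped the others to Ensembl mouse RNAs with FANSe2 (mismatches allowed), kept transcripts with at least 10 reads, and deposited unnormalized read counts per transcript. The submitters' processing notes name CASAVA 1.8 and edgeR. The aligner's version and the Ensembl release are not given in the sources used here. The deposited log2 fold changes, log2 mean CPM, p-values and FDR are the authors' own comparison and were not used, nor were 4 further columns of values per library. WT columns were tied to mice by number and APP columns to their group only.

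Counts were summed per gene by transcript identifier in GENCODE M21 (GRCm38; 36858 of 37539 transcripts, 98.2%), and the 681 others were kept as features. Summing by gene symbol had been planned, but the deposited symbols matched 3 of the 10 members exactly and 9 in any case. The smallest total of a feature was 10 counts. CPM used TMM library sizes. R 4.3.3, edgeR 4.0.16, limma 3.58.1, DESeq2 1.42.0, Python 3.11.15, pandas 2.3.3, numpy 2.4.6, scipy 1.17.1 and matplotlib 3.10.9 were used. The fit was edgeR's quasi-likelihood test (earlier method) with no covariate, tested on simulated counts. Standard errors are the log2 fold change over the root of F. The members and lists were chosen with earlier results of these data known. Genes named besides the members are, from each list, the 2 of highest mean CPM and the 2 of largest change among those of at least 1 CPM. Any gene of the list of other thalamic genes could be named, and genes with the members' profile only if it spanned at least 0.5 (log2), which it did not (0.44). Calb1, Ntng2, Sim1, Avp, Axin2, Nkd1, Slc18a3 and Eomes were named outside this rule, after their values were seen. Nothing states that reads carried molecular identifiers, so counting intervals cover counting error only.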

Additional observations from a re-analysis of the deposited data

How the results depend on the processing

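Against 162 features called, edgeR's exact test called 354, its likelihood ratio test 391, a fit of transcripts 303, and a fold change of at least 2 left 91. Leaving out 1 library gave 134 to 601. Of the thalamic markers, 1 was called in the comparison as reported, and 2 were with the exact and with the likelihood ratio test (Calb2 and Tcf7l2). Leaving out 1 library gave 1 to 3, the 3 being Calb2, Tcf7l2 and Rgs16 without APP-3. The median log2 fold change of the members lay between 0.34 and 0.45 with 1 library left out. No member's log2 fold change per gene changed sign under another test, scaling or filter, over coding transcripts only, or without 1 library. Fits of single transcripts give no value per gene, and Zic1 has none by deposited symbol. DESeq2, other scalings, at least 10 counts in every library, protein-coding transcripts only, the deposited symbols in any case and edgeR's newer quasi-likelihood method (these last 2 chosen after seeing the data) each called Calb2 alone of the members. Its adjusted p ran from 2.14e-06 to 0.0222 over the tests with all libraries. Fits with 1 library left out take the lone library of a group to vary like the other group, so their calls rest on the spread of 1 group. No paired analysis was possible because the labels number the mice of each genotype from one, while the APP columns carry 3 and 4. Depth limits the transcripts of Lef1 and Tcf7l2, with 90 counts or fewer each per library.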
